A study of Mus musculus with 22 samples.

Results

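The genes described here are 8 linked to the blood-brain barrier of capillary endothelial cells: Cldn5, Ocln, Abcb1a, Abcg2, Slco1a4, Mfsd2a, Plvap and Slc7a5. Plvap differs from the others in that it marks leaky capillaries rather than barrier capillaries. The 8 genes were chosen by name, with no measured value in the rule. They are 8 of the 21260 genes found in the 2 deposited count tables. All 8 were present in both tables. RNA was counted in the hypothalamus of male ob/ob mice, which lack leptin, at 11 weeks of age, after 1 intracerebroventricular (icv) injection of 3 µg fibroblast growth factor 1 (FGF1) or vehicle, and every vehicle mouse was pair-fed to what the FGF1 group ate. Nuclei were sequenced (snRNA-seq) from 3 FGF1 and 3 vehicle mice at 24 h after injection (Day 1), and from 2 of each on Day 5. Whole cells were sequenced (scRNA-seq) on Day 5 only, in a separate cohort kept on another chow, with 6 mice per treatment. The mouse was the replicate throughout, so p-values measure the spread between these mice.

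Brain capillaries differ from those of other organs in that their endothelial cells are sealed by tight junctions, carry out little transcytosis and have no fenestrae. Claudin-5 (Cldn5) and occludin (Ocln) are proteins of the tight junction strands. P-glycoprotein (Abcb1a) and the breast cancer resistance protein (Abcg2) pump drugs and other lipophilic compounds back into blood, Slco1a4 carries organic anions, and Slc7a5 (LAT1) brings in large neutral amino acids as the light chain of a dimer with Slc3a2. Mfsd2a takes up lysophosphatidylcholine that carries docosahexaenoic acid and restrains caveolar transcytosis, and Plvap forms the diaphragms of fenestrae, so that it marks the leaky capillaries of the median eminence rather than barrier capillaries.

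The promoters of 3 of the genes are printed because these genes span the range of patterns seen over cell types: Cldn5 and Slco1a4 were highest in endothelial cells, and Mfsd2a was at least as high in 2 glial types. Each sequence is the 250 bases before the annotated transcription start in RefSeq on GRCm38.p6, written 5′ to 3′ on the strand of the gene, and capitals mark any match on either strand to 5 motifs. The GC box was searched as GGGCGG, and the core of an ETS factor site as CCGGAAG. The core of a SOX factor site was searched as ACAAAG, that of a TCF or LEF site as CTTTGA, and the TATA box as the letters TATAAA.
Cldn5, chr16:18776597-18776846, plus strand: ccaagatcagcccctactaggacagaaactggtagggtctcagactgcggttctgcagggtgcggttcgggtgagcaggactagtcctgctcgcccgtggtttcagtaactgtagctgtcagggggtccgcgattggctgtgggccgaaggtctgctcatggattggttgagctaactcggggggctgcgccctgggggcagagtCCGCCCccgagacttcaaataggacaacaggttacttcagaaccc
Slco1a4, chr6:141856221-141856470, minus strand: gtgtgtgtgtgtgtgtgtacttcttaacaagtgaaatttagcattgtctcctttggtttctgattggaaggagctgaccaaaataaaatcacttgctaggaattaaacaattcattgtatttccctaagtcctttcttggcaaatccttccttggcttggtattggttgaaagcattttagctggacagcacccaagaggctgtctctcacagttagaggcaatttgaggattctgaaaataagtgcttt
Mfsd2a, chr4:122961189-122961438, minus strand: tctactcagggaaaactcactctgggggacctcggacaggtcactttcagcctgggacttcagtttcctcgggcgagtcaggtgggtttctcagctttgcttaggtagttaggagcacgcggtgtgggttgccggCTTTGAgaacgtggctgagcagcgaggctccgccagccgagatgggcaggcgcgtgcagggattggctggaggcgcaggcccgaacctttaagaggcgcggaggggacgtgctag
The Cldn5 promoter held 1 GC box, which 32.7% of the 32851 promoters of this length in the same table also hold. The Mfsd2a promoter held 1 TCF/LEF core, found in 13.8% of all promoters. The Slco1a4 promoter held none of the 5 motifs in this window. GC content was 59.6% for Cldn5, 39.2% for Slco1a4 and 61.6% for Mfsd2a, against a median of 52.4% over all promoters. The table has no entry for Plvap and Slc7a5.

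The genes lie on 6 chromosomes of GRCm38 by the GENCODE M21 annotation. Cldn5 is at chr16:18776847-18778262 and Ocln at chr13:100496507-100552718. Abcg2 at chr6:58584523-58695676 and Slco1a4 at chr6:141805440-141856199 share a chromosome, as do Plvap at chr8:71497765-71511752 and Slc7a5 at chr8:121881150-121907694. Abcb1a is at chr5:8660077-8748575 and Mfsd2a at chr4:122946850-122961188. Plvap overlaps Gtpbp3 and Slc7a5 overlaps Gm20388, each on the opposite strand, and Abcb1a overlaps Gm42684 on its own strand and Gm42686 on the other. Counts can be told from those of an opposite partner only where strand was used in counting, and strand cannot tell Abcb1a from Gm42684. Of the 837 stretches of 98 bases at the 3′ ends of Abcb1a transcripts, 133 also occur in its paralog Abcb1b, and Abcb1a counts are uncertain to that extent, whereas the other 7 genes shared none with their paralogs. Abcb1b itself had 29 UMIs (unique molecular identifiers, each a counted molecule) in endothelial cells, against 4171 for Abcb1a.

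Endothelial cells were the 4113 cells of the authors' whole-cell cluster 3, of 54890 cells in all, and 163 to 629 of them came from each mouse. All 10 endothelial markers were enriched there, among them Pecam1, Cdh5 and Flt1 and also Cldn5, the only one of the 8 genes in that list. All 8 pericyte markers were enriched there too. The cluster was taken to be endothelial because 3 of its 10 leading genes were endothelial markers. Pericyte markers had a median of 2 UMIs per cell against 12 in the pericyte cluster, and 30.2% of endothelial cells had none. Endothelial totals ran from 227646 to 1036723 UMIs per mouse. Levels below are in CPM, the UMIs of a gene per 1000000 UMIs summed over the cells of that type in 1 mouse. Between libraries, 1791 barcode sequences recurred in the whole-cell data, over 3616 cells.

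Cldn5, Slco1a4, Abcb1a and Slc7a5 were highest in endothelial cells of the 13 whole-cell types, and the range over mice did not reach that of the next type. Their medians over 12 mice were 909 CPM for Cldn5, 1248 CPM for Slco1a4, 618 CPM for Abcb1a and 593 CPM for Slc7a5. The next type by median and by mean was smooth muscle for Cldn5 (364 to 616 CPM in 3 mice) and for Slco1a4 (51.9 to 388 CPM). For Abcb1a it was the arachnoid barrier-like cells (147 to 258 CPM). For Slc7a5 it was astrocytes by median (46.6 to 86.5 CPM in 12 mice) and smooth muscle by mean (0 to 194 CPM in 3 mice). Smooth muscle, at 95 cells, also held 7 enriched endothelial markers. These levels describe the cells, since the same cells were clustered on their RNA, and are given without a test.

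Abcg2 and Ocln had a second site. Abcg2 ranged from 360 to 702 CPM in endothelial cells and from 226 to 393 CPM in the arachnoid barrier-like cells, a cluster of 67 cells named from 3 markers (Slc47a1, Crabp2 and Klf5), so these ranges overlapped. In that cluster 34.3% of cells had an Abcg2 UMI and 26.9% an Abcb1a UMI, while Cldn5 was found in 0 of 67 cells, which allows up to 5.36% of cells with a Cldn5 UMI at their median depth of 1458 UMIs (exact binomial interval, counting error only) and sets no limit on cells that express the gene. Ocln ranged from 129 to 176 CPM in endothelial and from 103 to 197 CPM in ependymal cells, again overlapping, and tanycytes were at 21.6 to 42.8 CPM, below both.

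Mfsd2a was not highest in endothelial cells. Its order was oligodendrocyte precursor cells (OPC, 139 to 246 CPM), cells committed to differentiate into oligodendrocytes (COP, 93.9 to 293 CPM), endothelial cells (102 to 190 CPM) and astrocytes (41.7 to 121 CPM), each range overlapping the next. An Mfsd2a UMI was found in 22.9% of OPC, 23.9% of COP, 18.9% of endothelial cells and 9.48% of astrocytes, over cells of both groups and at median depths of 1248, 1881, 1330 and 1087 UMIs. Plvap was low in every type, and its order depends on the measure. By median it was at 11.1 CPM in OPC (0 to 24.8 CPM), 6.66 CPM in vascular leptomeningeal cells (VLMC, 0 to 211 CPM), 4.81 CPM in microglia and in astrocytes and 3.23 CPM in endothelial cells (0 to 110 CPM). By mean VLMC (46.3 CPM) and endothelial cells (20.8 CPM) led, on a few high mice, with OPC at 12.5 CPM.

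**Figure D1:**
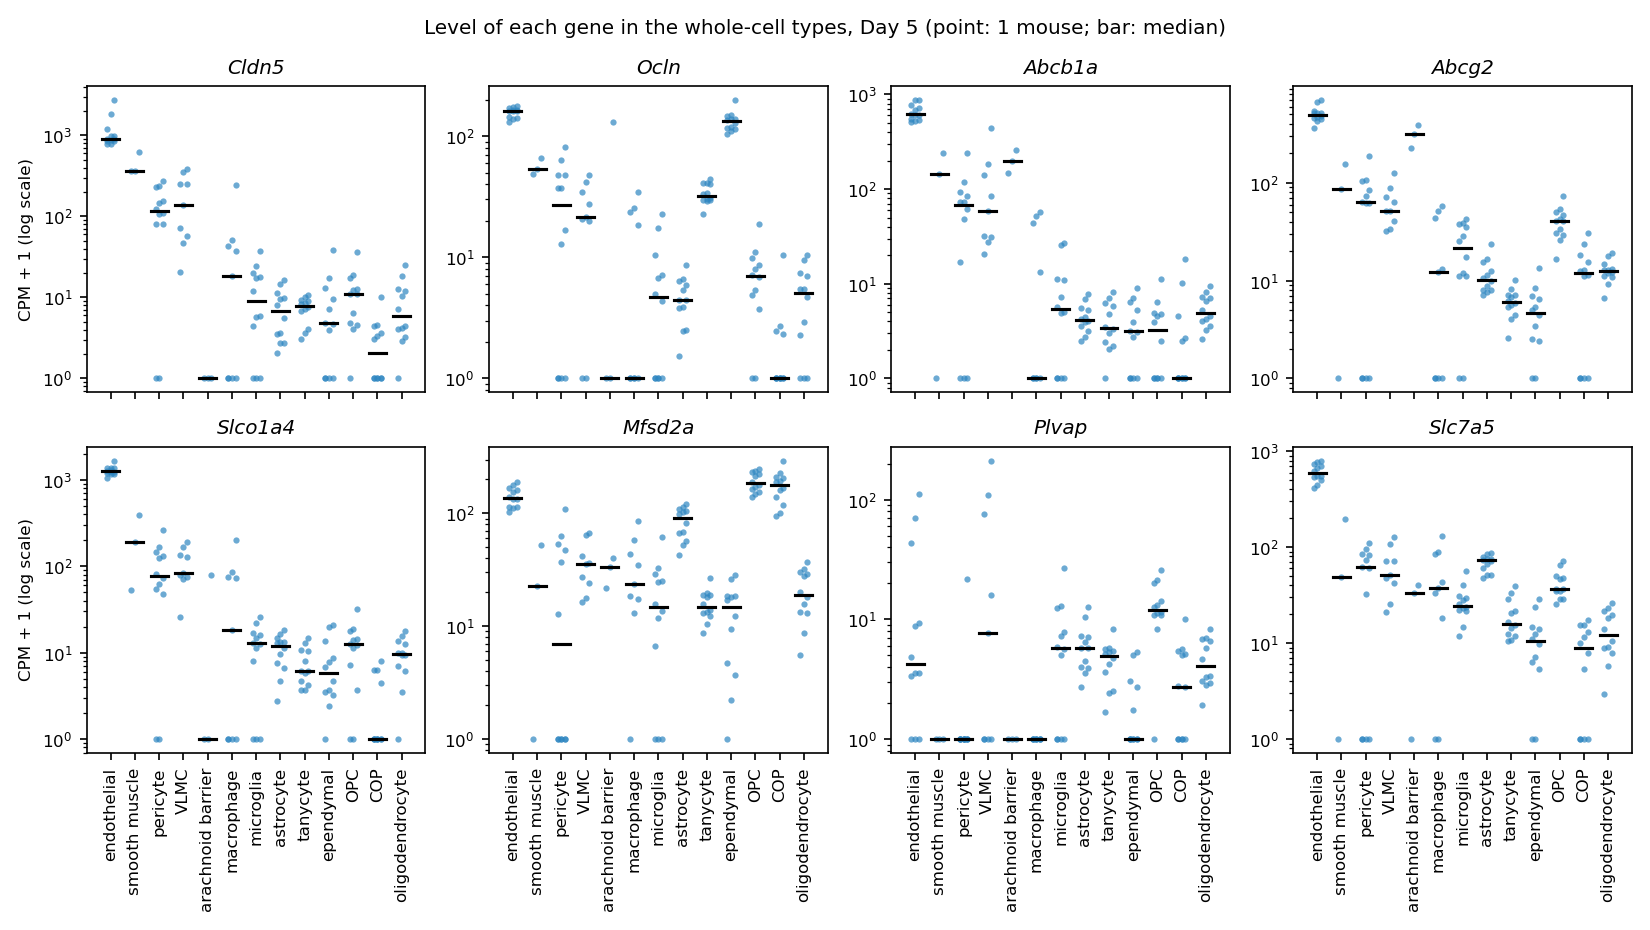
Level of each gene in 13 whole-cell types on Day 5, in CPM + 1 on a log axis, where a point is 1 mouse with at least 10 cells of the type and a bar is the median. Cldn5, Slco1a4, Abcb1a and Slc7a5 stand apart in endothelial cells, Ocln is also high in ependymal cells, and Mfsd2a lies as high in OPC and COP as in endothelial cells.

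In droplet data, RNA free in the suspension adds UMIs to cells that do not express a gene. For every 100 Cldn5 UMIs, endothelial cells held 102 Slco1a4 and 49.6 Abcb1a UMIs, and ratios near these were found in several types that should express neither: 103 and 48.6 in oligodendrocytes, 96.6 and 44.8 in tanycytes, 98.1 and 38.5 in ependymal cells, and 91.4 and 54.3 in microglia. Others lay further off, with 141 and 53.2 in astrocytes, 106 and 25 in OPC (on 13 Abcb1a UMIs) and 133 and 66.7 in COP (on 12 and 6 UMIs). The share of cells with a Cldn5 UMI was 71.2% in endothelial cells and 0.401% to 1.34% in the glial types, at median depths of 1330 UMIs and 1087 to 1881 UMIs, and whether free RNA gave these glial Cldn5 UMIs was not tested. Mfsd2a did not follow that ratio, with 11.2 UMIs per 100 of Cldn5 in endothelial cells against 1248 in astrocytes, 2067 in OPC, 6044 in COP and 237 in oligodendrocytes. Ocln in ependymal cells (1617 against 12.8) and in tanycytes (589 against 12.8) and Slc7a5 in astrocytes (924 against 47.4) exceeded the endothelial ratio as well. Slc7a5 in oligodendrocytes also did, by less (144 against 47.4). Plvap exceeded it too, with 1.25 UMIs per 100 of Cldn5 in endothelial cells against 119 in OPC, 89.2 in astrocytes, 60 in tanycytes and 43.8 in oligodendrocytes. Abcg2 had 40.0 in endothelial cells against 385 in OPC, 667 in COP, 169 in microglia, 153 in astrocytes and 128 in oligodendrocytes. In tanycytes (75.2) and ependymal cells (46.2) Abcg2 was nearer the endothelial ratio.

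Over the 13 types, the genes whose mean levels were most like each member by Pearson's r of log2(CPM + 1), among 13099 genes, were Adgrf5 (r = 0.99) for Cldn5, Anxa11 (r = 0.93) for Ocln, 9430020K01Rik (r = 0.99) for Abcb1a and Gpr4 (r = 0.94) for Abcg2. For Slco1a4 it was Ly6c1 (r = 0.98), for Mfsd2a Klhl5 (r = 0.91), for Plvap Lzts1 (r = 0.90) and for Slc7a5 the thyroid hormone transporter Slco1c1 (r = 0.92). The 13 points share libraries and any free RNA in them, and the correlations are descriptions.

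The first comparison was that of FGF1 with vehicle in endothelial cells on Day 5. None of the 7 genes that passed the filter on low counts changed at an adjusted p below 0.05 by edgeR's quasi-likelihood test with Benjamini-Hochberg adjustment, the test behind each adjusted p below. Over all genes, 60 of 6329 were called in these cells, or 0.948%. At an unadjusted p below 0.05 there was 1 of the 7, Abcg2, where 12.3% of all genes had such a p. DESeq2 called 0 of the 7 too. Of the 7 fitted changes 2 were positive and 5 negative, with a median of −0.13 on the log2 scale, against 0.01 over all genes tested.

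Among tight junction genes, Cldn5 was at a lowest, median and highest level of 780 (FGF1 10), 936 and 1845 CPM (FGF1 28) in FGF1 mice. In vehicle mice it was at 792 (vehicle 35), 909 and 2741 CPM (vehicle 22). In each group 1 mouse lay far above the other 5, and without those mice all values fell between 780 and 1184 CPM. The fitted log2 fold change was −0.22 ± 0.36 (SE; 95% interval −1.02 to 0.58; edgeR adjusted p = 0.858). It turned to 0.20 without vehicle 22 and was −0.46 without FGF1 28, so its direction rests on single mice.

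Ocln varied far less between mice. It was at 137, 151 and 173 CPM (lowest, median and highest) with FGF1 and at 129, 163 and 176 CPM with vehicle, and the groups overlapped throughout. The log2 fold change was −0.07 ± 0.12 (95% interval −0.32 to 0.18; edgeR adjusted p = 0.869).

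Among the efflux pumps, Abcb1a was at 505, 651 and 874 CPM with FGF1 and at 523, 582 and 863 CPM with vehicle. The groups overlapped, the log2 fold change was 0.08 ± 0.14 (95% interval −0.20 to 0.36; edgeR adjusted p = 0.873), and without FGF1 21 it was −0.0097. Abcg2 was at 463, 512 and 702 CPM with FGF1 and at 360, 457 and 546 CPM with vehicle. FGF1 10 and FGF1 21 exceeded every vehicle mouse, and FGF1 was higher in 5 of the 6 batches that each held 1 mouse of either group. The Abcg2 log2 fold change was 0.29 ± 0.13 (95% interval 0.03 to 0.55; unadjusted p = 0.0285, edgeR adjusted p = 0.328), which did not pass the test, and without FGF1 10 it was 0.19. In endothelial cells with no pericyte-marker UMI, a selection made after the data were seen, it was 0.49 ± 0.16 (edgeR adjusted p = 0.112).

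Among uptake carriers, Slco1a4 was at 1050.1, 1175 and 1362 CPM with FGF1 and at 1219.8, 1285 and 1661 CPM with vehicle. Of the 6 FGF1 mice 4 lay below the lowest vehicle mouse, and the highest value, in vehicle 29, stood apart from the other 5 of its group. The log2 fold change was −0.13 ± 0.11 (95% interval −0.36 to 0.10; edgeR adjusted p = 0.682). Slc7a5 was at 413, 551 and 729 CPM with FGF1 and at 496, 661 and 797 CPM with vehicle, with overlap and with FGF1 lower in 5 of 6 batches. Its log2 fold change was −0.22 ± 0.14 (95% interval −0.51 to 0.07; edgeR adjusted p = 0.562). Its dimer partner Slc3a2, at −0.07 ± 0.14 (edgeR adjusted p = 0.896), did not pass the test either. Nor did Slco1c1, a carrier related to Slco1a4, at −0.15 ± 0.11 (edgeR adjusted p = 0.625).

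The lipid carrier Mfsd2a was at 102, 124 and 167 CPM with FGF1 and at 112, 149 and 190 CPM with vehicle in endothelial cells. The groups overlapped, FGF1 was lower in 4 of 6 batches, and the log2 fold change was −0.24 ± 0.15 (95% interval −0.55 to 0.07; edgeR adjusted p = 0.543). Plvap did not pass the filter on low counts, with 105 UMIs in 53 endothelial cells. In FGF1 mice it had 36 UMIs in FGF1 7, 14 in FGF1 6 and 0 to 3 in the other 4. In vehicle mice it had 36 UMIs in vehicle 35 and 0 to 6 in the other 5, so 3 mice held most Plvap molecules and both groups had mice at 0.

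**Figure D2:**
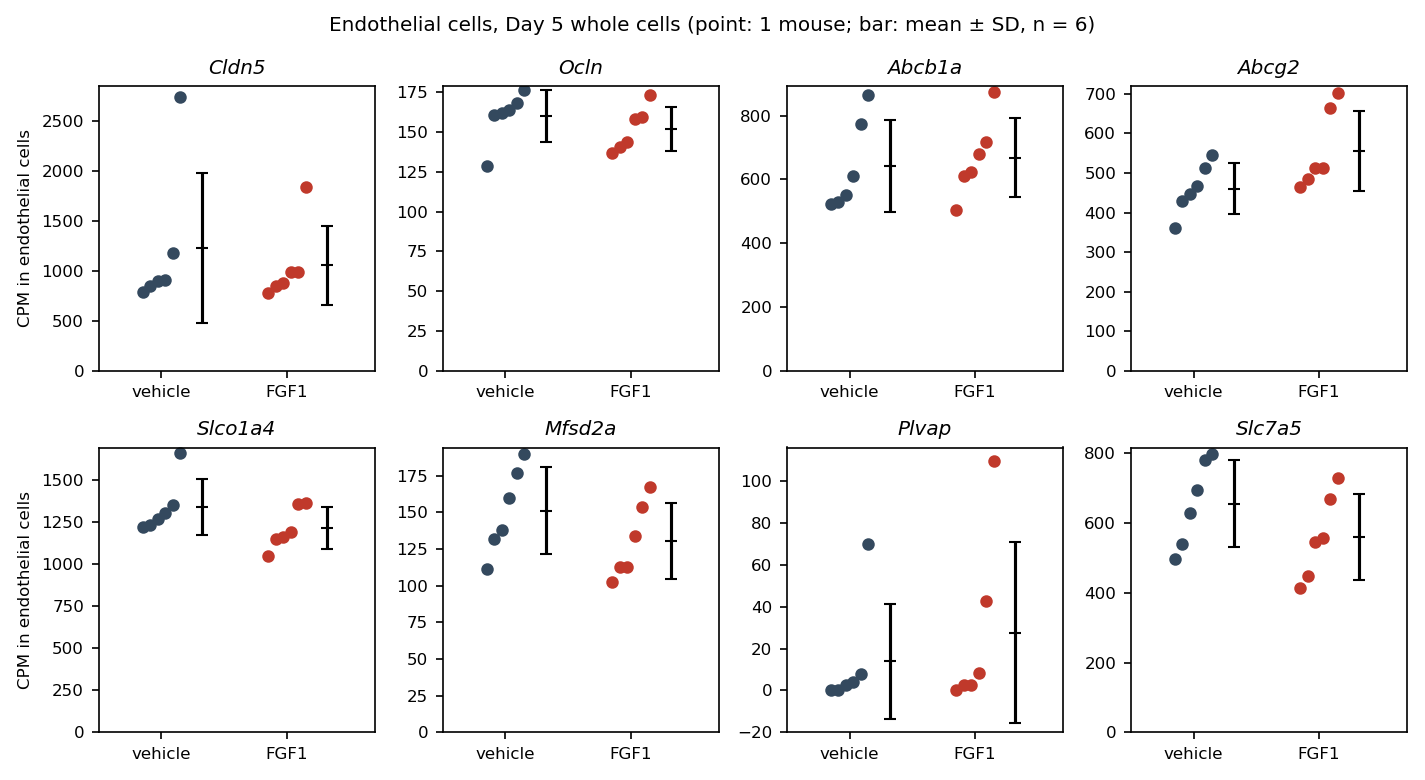
Level of each gene in endothelial cells of whole-cell Day 5 libraries, in CPM, by group, where a point is 1 mouse and the bar beside it is the mean ± SD of 6 mice. The groups overlap for all 8 genes, Cldn5 has 1 high mouse in either group (1845 CPM with FGF1 and 2741 CPM with vehicle), and Plvap is near 0 in most mice.

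The share of endothelial cells among all cells of a mouse was 6.66% ± 1.88 (SD, n = 6) with FGF1 and 9.0% ± 2.72 with vehicle, a difference that did not exceed the spread (exact two-sided permutation test, p = 0.119; adjusted over 3 datasets, 0.357). Levels summed over a whole tissue could therefore not tell fewer endothelial cells from less RNA per cell, while the CPM here are within the cell type. Within endothelial cells, summed astrocyte markers (8 of 8 with UMIs) were at 1497 to 2488 CPM with FGF1 and 2327 to 3554 CPM with vehicle. Summed markers of tanycytes (8 of 8) were at 140 to 414 against 85.5 to 189 CPM, of ependymal cells (7 of 7) at 76.2 to 235 against 48.0 to 125 CPM, and of COP (6 of 6) at 108 to 170 against 71.6 to 125 CPM. These 4 lists had the smallest p of 15, each 0.0974 after adjustment (exact permutation test over mice), and their part in the endothelial results was not tested. The endothelial markers themselves (10 of 10, Cldn5, Pecam1, Esam, Flt1 and Tek among them) were at 8555 to 10416 CPM with FGF1 (median 9525). With vehicle they were at 7235 to 10721 CPM (median 7551, exact permutation p = 0.0584, adjusted 0.175). Vehicle 22 was the highest of all, and the other vehicle mice were at 7235 to 8742 CPM. Cldn5, itself in the sum, was at 2741 CPM in vehicle 22 and 1845 CPM in FGF1 28. The sum without Cldn5 was not tested. The part of these markers in the endothelial results was not tested either. Among the 60 called genes were the astrocyte markers Slc1a2 and Aldoc, which fell, and Gfap, which rose, as did the tanycyte marker Gpr50 and the endothelial marker Ptprb.

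Other genes of the barrier were taken from 9 lists of 116 genes, of which 85 were tested in endothelial cells. None was called, 52 had a positive and 33 a negative change, and the median log2 fold change was 0.07, against 0.01 over all genes tested. An unadjusted p below 0.05 was found for 14 of the 85, where 12.3% of all genes had one. The junction list, with 9 tested, had a median of 0.13 and was led by Pecam1 (0.34 ± 0.12, edgeR adjusted p = 0.195) and Esam (0.30 ± 0.12, edgeR adjusted p = 0.289), both cell adhesion molecules. The 6 tested genes of caveolae and vesicles were all positive, with a median of 0.19, led by Cav2 (0.31 ± 0.15, edgeR adjusted p = 0.408) and Ehd2 (0.36 ± 0.20, edgeR adjusted p = 0.492).

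In the list of 21 tested transporters, 13 changes were positive and 8 negative. Slc38a5, a glutamine carrier, was at 0.52 ± 0.15 (edgeR adjusted p = 0.0854). Among the receptors, Lrp8 was at 0.40 ± 0.14 (edgeR adjusted p = 0.193) and Lrp1 at −0.23 ± 0.14 (edgeR adjusted p = 0.539). In the Wnt/beta-catenin list, the pathway that maintains barrier endothelium, 12 of 20 changes were negative, with Nkd1 at −0.65 ± 0.21 (edgeR adjusted p = 0.131) and Lef1 at −0.24 ± 0.13 (edgeR adjusted p = 0.467).

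The remaining lists had 1 or 2 genes each at an unadjusted p below 0.05. Of fenestrated or peripheral endothelium, 7 were tested, with Plpp3 at −0.46 ± 0.13 (edgeR adjusted p = 0.0698) and the VEGF receptor Flt1 at 0.22 ± 0.11 (edgeR adjusted p = 0.434). Of activated endothelium, 4 were tested, with Icam2 at 0.37 ± 0.16 (edgeR adjusted p = 0.317) and Vwf at 0.32 ± 0.15 (edgeR adjusted p = 0.352). Basement membrane genes included Sparc at −0.41 ± 0.12 (edgeR adjusted p = 0.0935) and Col4a1 at 0.31 ± 0.15 (edgeR adjusted p = 0.414), and tip cell genes Hey1 at −0.49 ± 0.24 (edgeR adjusted p = 0.403) and Tek at 0.23 ± 0.13 (edgeR adjusted p = 0.502).

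The second comparison was that of the same genes in the other whole-cell types on Day 5. Of 80 gene and type pairs in 10 types, 19 passed the filter on low counts, and 4 were called, or 21.1%, all of them lower with FGF1. Over all genes in these types 4.59% of pairs were called and 2.3% were called lower. The 4 were Mfsd2a in astrocytes, OPC and oligodendrocytes, and Slc7a5 in oligodendrocytes. Mfsd2a was tested in 6 types, endothelial cells included, and its change was negative in each.

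In astrocytes, Mfsd2a was at 41.7, 60.9 and 121 CPM (lowest, median and highest) with FGF1 and at 81.2, 104 and 113 CPM with vehicle. Of the 6 FGF1 mice 5 lay below every vehicle mouse and FGF1 7 lay above them all. Mfsd2a fell by a log2 fold change of −0.70 ± 0.17 (edgeR adjusted p = 0.0107), in a type where 12.6% of genes were called and 6.06% called lower, and the call held without any 1 mouse (highest edgeR adjusted p 0.0362). Astrocytes came from 2 clusters, of which cluster 1 was 16.2% and cluster 4 83.0% FGF1 cells. Tested on its own, cluster 1 gave −0.86 ± 0.21 (edgeR adjusted p = 0.0436) and cluster 4, led by Gfap, −0.37 ± 0.23 (edgeR adjusted p = 0.698).

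In oligodendrocytes, Mfsd2a was at 4.57, 12.2 and 19.1 CPM with FGF1 and at 17.1, 28.6 and 36.5 CPM with vehicle. Only FGF1 7 exceeded the lowest vehicle mouse, and FGF1 was lower in 6 of 6 batches. Mfsd2a fell by a log2 fold change of −1.21 ± 0.23 (edgeR adjusted p = 0.00615), where 2.25% of genes were called and 1.13% called lower, and the call held without any 1 mouse (highest edgeR adjusted p 0.0254). The values rest on 66 UMIs with FGF1 and 280 with vehicle. Oligodendrocytes came from cluster 2 (24.3% FGF1 cells), cluster 11 (88.0%) and cluster 12 (19.0%), and cluster 2 on its own gave −0.74 ± 0.28 (edgeR adjusted p = 0.229).

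In OPC, Mfsd2a was at 139, 157 and 190 CPM with FGF1 and at 177, 228 and 246 CPM with vehicle. Again 5 FGF1 mice lay below every vehicle mouse, with FGF1 7 the exception. The log2 fold change was −0.47 ± 0.13 (edgeR adjusted p = 0.0264), where 3.24% of genes were called and 1.54% called lower. Leaving out 1 mouse at a time, 5 of the 12 fits no longer gave the call (FGF1 10, FGF1 21, FGF1 6, vehicle 20 or vehicle 25; highest edgeR adjusted p 0.0771). Cluster 5, which held most OPC, gave −0.43 ± 0.13 on its own (edgeR adjusted p = 0.0572).

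In COP, every FGF1 mouse (94 to 166 CPM, median 128) lay below every vehicle mouse (190 to 293 CPM, median 207), a separation that 0.316% of genes showed in this type. The Mfsd2a log2 fold change was −0.75 ± 0.21 (edgeR adjusted p = 0.0683), which missed the threshold, and DESeq2 gave −0.80 (adjusted p = 0.0412). Without vehicle 22 it was −0.47, and with 1 mouse left out the edgeR adjusted p ran from 0.0233 to 0.458. Vehicle mice gave 16 to 51 COP and 79 Mfsd2a UMIs in all, and 90.6% of COP were from FGF1 mice. In ependymal cells FGF1 mice were at 0 to 11.4 CPM and vehicle mice at 15.98 to 27.4 CPM, again apart (0.661% of genes), on 22 and 63 UMIs. Mfsd2a was under the count filter there, so this pair is not among the calls counted above. The fit without the filter gave −1.61 ± 0.37 (edgeR adjusted p = 0.00615). Unfiltered fits of the other whole-cell pairs under the filter are not given. In tanycytes Mfsd2a was at 7.74, 11.7 and 17.1 CPM against 12.4, 17.98 and 25.9 CPM, with a log2 fold change of −0.49 ± 0.21 (edgeR adjusted p = 0.185).

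**Figure D3:**
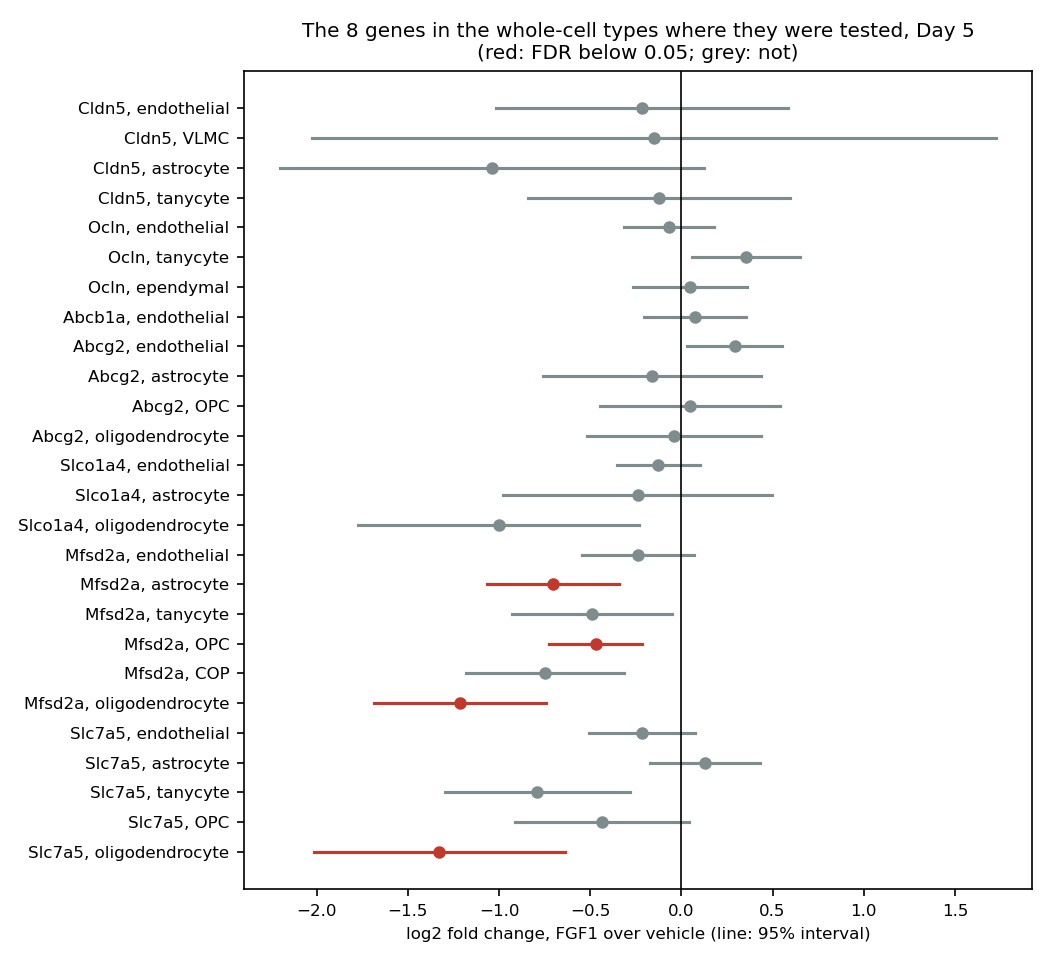
Log2 fold change of FGF1 over vehicle with its 95% interval for each of the 26 gene and type pairs tested in whole cells on Day 5, with red marking an adjusted p below 0.05. Mfsd2a is left of 0 in all 6 types tested, the 4 red pairs are Mfsd2a in astrocytes, OPC and oligodendrocytes and Slc7a5 in oligodendrocytes, and no endothelial pair is red.

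Slc7a5 in oligodendrocytes was at 1.93, 7.40 and 18.7 CPM with FGF1 and at 9.41, 18.9 and 25.3 CPM with vehicle, on 37 and 173 UMIs. FGF1 6 alone exceeded 9.41 CPM among FGF1 mice. Slc7a5 fell by a log2 fold change of −1.33 ± 0.33 (edgeR adjusted p = 0.034), but with 1 mouse left out 8 of the 12 fits no longer gave the call (highest edgeR adjusted p 0.117). With all mice kept, the call was lost in 1 other setting and held in 4. Slc7a5 did not pass the filter on low counts in any of the 3 oligodendrocyte clusters on its own. Slco1a4 in the same cells, where its ratio to Cldn5 was that of endothelial cells, was at −1.002 ± 0.37 (edgeR adjusted p = 0.141), and its part in the Slc7a5 result was not tested. In tanycytes Slc7a5 was at 9.62, 12.5 and 20.6 against 9.74, 23.5 and 38.1 CPM, a log2 fold change of −0.79 ± 0.24 (edgeR adjusted p = 0.0624), and with the batch as a block −0.84 ± 0.19 (edgeR adjusted p = 0.0104). In astrocytes it was at 50.8, 74.6 and 86.5 against 46.6, 62.6 and 83.7 CPM, overlapping, at 0.13 ± 0.15 (edgeR adjusted p = 0.622).

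Of the other tested pairs, Ocln in tanycytes had a log2 fold change of 0.35 ± 0.14 (edgeR adjusted p = 0.162), with medians of 39.7 CPM with FGF1 and 29.1 CPM with vehicle. In ependymal cells Ocln was at 0.05 ± 0.15 (edgeR adjusted p = 0.949). Abcg2 was at 0.05 ± 0.24 in OPC, −0.04 ± 0.23 in oligodendrocytes and −0.16 ± 0.29 in astrocytes, and Cldn5 in astrocytes was at −1.04 ± 0.55 (edgeR adjusted p = 0.244), where 0.781% of cells had a Cldn5 UMI.

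**Figure D4:**
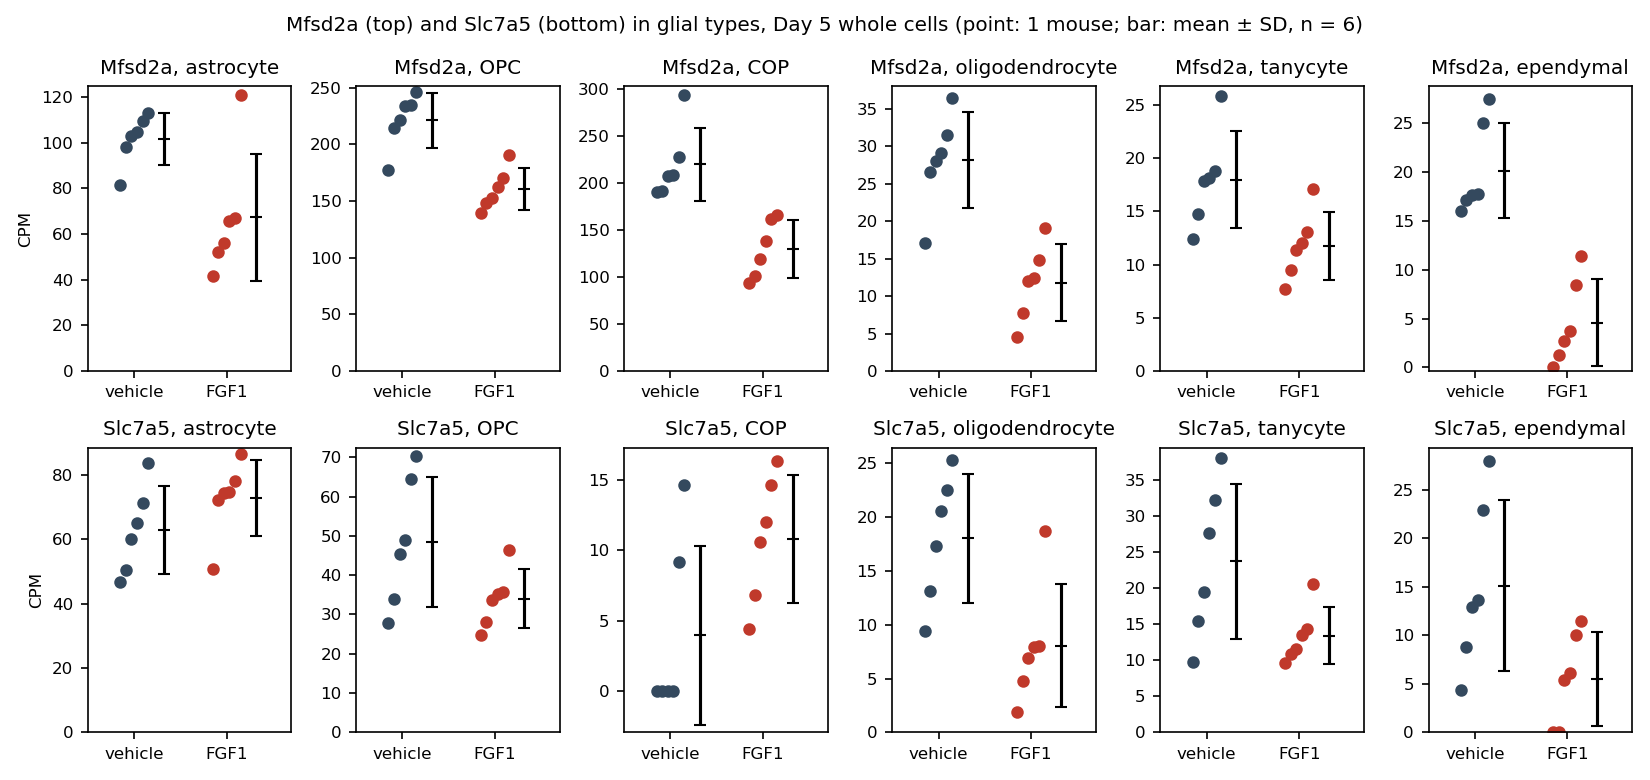
Level of Mfsd2a (top) and Slc7a5 (bottom) in 6 glial types of whole-cell Day 5 libraries, in CPM, by group, where a point is 1 mouse and the bar beside it is the mean ± SD of 6 mice. Mfsd2a points of the groups do not overlap in COP (94 to 166 against 190 to 293 CPM) and ependymal cells, and FGF1 7 is the high point in astrocytes (121 CPM).

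Whether the change in glia differed from that in endothelial cells was tested for Mfsd2a and Slc7a5 within mice, as the difference of log2(CPM + 1) between a type and the endothelial cells of the same mouse. None of the 9 differences passed an exact two-sided permutation test after adjustment. The smallest adjusted p, 0.0584, was shared by Mfsd2a in COP (FGF1 minus vehicle −0.56), Mfsd2a in oligodendrocytes (−1.06), Slc7a5 in astrocytes (0.45) and Slc7a5 in oligodendrocytes (−0.997). For Mfsd2a in astrocytes the difference was −0.45 (permutation p = 0.126, adjusted 0.198) and in OPC −0.25 (permutation p = 0.271, adjusted 0.304).

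Few endothelial cells had a Plvap UMI. After each cell was thinned to 800 UMIs, leaving out 81 shallower cells, 36 of 4032 endothelial cells, or 0.893%, had a Plvap UMI (1.29% unthinned). The unthinned share was 1.53% in OPC and 0.729% in astrocytes, at median depths of 1248 and 1087 UMIs against 1330, so over all mice the endothelial share was above that of astrocytes but not of OPC. The 53 positive endothelial cells held 105 Plvap UMIs and the 60 positive OPC held 62. By mouse the share ran from 0% through a median of 0.846% to 6.59% (FGF1 7) with FGF1, and from 0% through 0.270% to 2.25% (vehicle 35) with vehicle. The groups overlapped, and the difference did not exceed the spread between mice (exact two-sided permutation test, p = 0.318). The 3 mice highest in Plvap UMIs were among the 5 with Plvap UMIs in VLMC, which numbered 20 in FGF1 7, 7 in FGF1 6, 6 in vehicle 22, 3 in vehicle 35 and 2 in FGF1 36.

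In cells pooled over mice, Plvap-positive endothelial cells held less of the other 7 genes. Ocln rested on 4 and Mfsd2a on 3 UMIs in the positive cells. Summed over mice, Cldn5 was at 234 CPM (95% Poisson interval 146 to 354) in the 53 cells with a Plvap UMI and at 1262 CPM (1235 to 1289) in the 4060 without. Slco1a4 was at 372 CPM (259 to 517) against 1288 CPM (1261 to 1315), and Slc7a5 at 191 CPM (113 to 302) against 598 CPM (579 to 616). Intervals cover counting error only. Abcg2 was at 255 CPM (163 to 379) against 503 CPM (486 to 520). Both sets had a median of 1330 UMIs per cell. Within the 2 mice that had at least 10 positive cells each of the 7 genes was lower in positive cells in 2 of 2, by log2 −2.57 for Cldn5 and −2.38 for Slco1a4, but an exact sign-flip permutation over 2 mice cannot go below p = 0.5, the value found.

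The third comparison was that of endothelial nuclei, which were few. Of 24965 nuclei 96 carried the authors' endothelial label, 39 from FGF1 and 21 from vehicle mice on Day 1 and 29 and 7 on Day 5, with 2 to 20 per mouse. Endothelial markers were far above the rest of the nuclei, such as Cdh5 at 231 against 0.890 CPM and Ly6c1 at 3216 against 2.19 CPM. Only the Day 1 FGF1 group had 2 mice with the minimum of 10 nuclei, so no fit at that minimum was possible on either day, and values by mouse or summed over mice are given. The share of endothelial nuclei was 0.547% ± 0.254 (n = 3) with FGF1 and 0.511% ± 0.217 with vehicle on Day 1 (exact permutation p = 0.9). On Day 5 it was 0.406% and 0.347% in the FGF1 mice and 0.0629% and 0.846% in the vehicle mice, which lay on either side of both (exact permutation p = 1, with 2 mice a group).

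On Day 1 Cldn5 was at 2909, 1334 and 1322 CPM in FGF1 mice 1, 2 and 3 and at 1017, 874 and 1052 CPM in vehicle mice 1, 2 and 3. Every FGF1 value lay above every vehicle value, each on 29 to 143 UMIs. Of all genes with a UMI in these nuclei 3.64% were apart in this direction. With a minimum of 5 nuclei per mouse, edgeR gave a log2 fold change of 0.81 ± 0.37 (unadjusted p = 0.0478, adjusted p = 0.701), where 0 of 574 genes, or 0%, were called. On Day 5 Cldn5 was at 865 and 612 CPM with FGF1 and at 1358 and 974 CPM with vehicle, the reverse order, on 14 to 52 UMIs. Ocln, at 223 and 153 against 291 and 310 CPM on 3 to 13 UMIs, and Abcb1a, at 642 and 765 against 1067 and 974 CPM, were also lower in both FGF1 mice on Day 5. With 2 mice a group 8.07% of all genes with a UMI were apart in that direction. On Day 1 the ranges of Ocln (203 to 244 with FGF1 and 140 to 351 CPM with vehicle), Abcb1a (610 to 949 and 525.9 to 1087 CPM) and Slc7a5 (386 to 1288 and 463 to 982 CPM) overlapped, as did those of Slc7a5 on Day 5 (424 to 558 and 194 to 753 CPM).

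Summed Slco1a4 was at 3155 CPM (95% Poisson interval 2879 to 3450) with FGF1 and 3992 CPM (3602 to 4412) with vehicle on Day 1, and at 3304 CPM (2988 to 3645) and 4378 CPM (3693 to 5155) on Day 5. By mouse its ranges overlapped on both days. Mfsd2a was at 184 CPM (122 to 266) with FGF1 and 62.5 CPM (22.9 to 136) with vehicle on Day 1, the latter on 6 UMIs. By mouse it was at 183, 177 and 203 CPM with FGF1 and at 70.1, 103 and 0 CPM with vehicle, apart like Cldn5, while on Day 5 (195 and 141 against 0 and 177 CPM) the groups overlapped. Abcg2 was at 710 and 813 CPM on Day 1 and 1052 and 882 CPM on Day 5, with overlapping intervals. Plvap had 2 UMIs over all 96 nuclei.

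**Figure D5:**
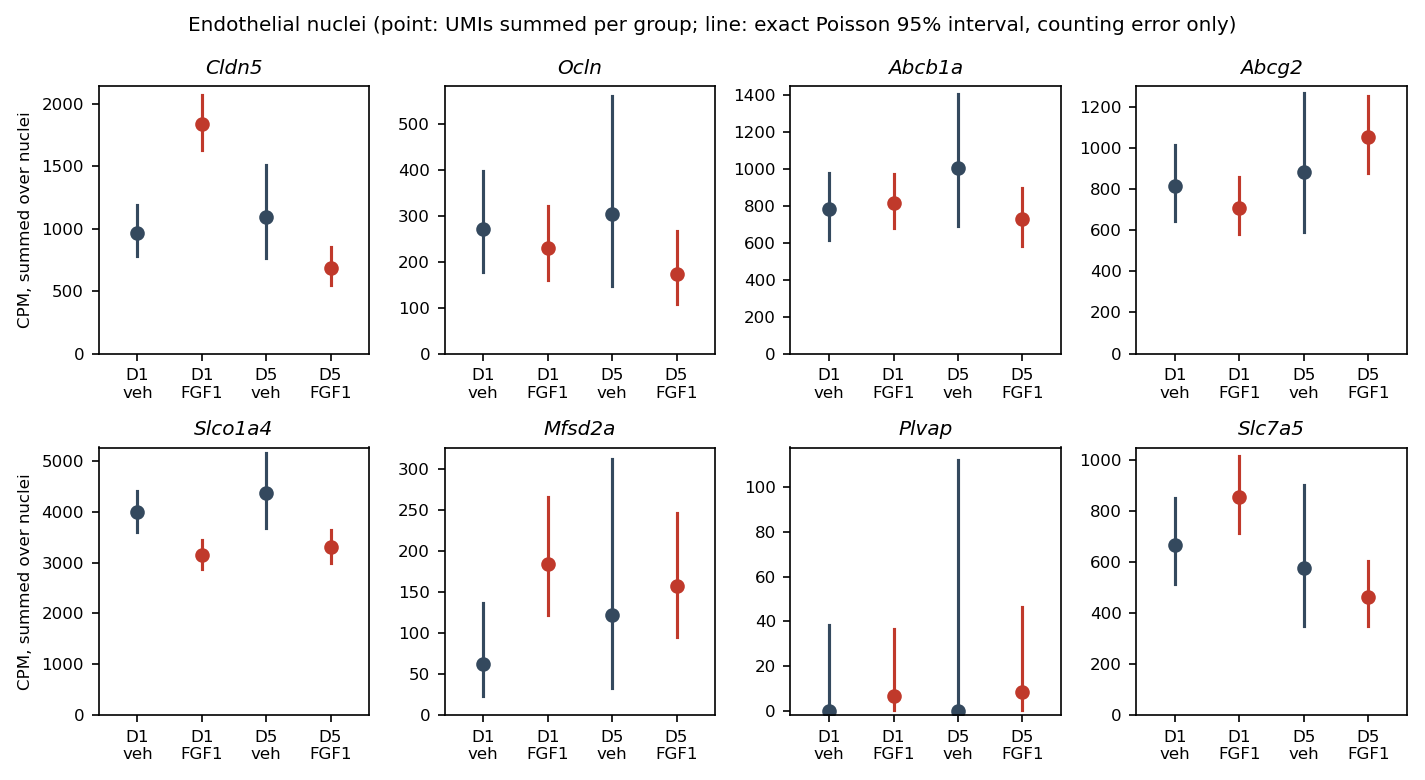
Level of each gene in endothelial nuclei by group, in CPM, with D1 for Day 1, D5 for Day 5 and veh for vehicle. A point is the level from UMIs summed over all nuclei of a group. The line through it is the Poisson interval, which covers counting error only and not the spread between mice. Summed Cldn5 with FGF1 (1840 CPM) lies above vehicle (969 CPM) on Day 1. It lies below vehicle on Day 5 (687 against 1095 CPM), on 2 to 20 nuclei per mouse.

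In the other nuclear types none of the genes was called on either day. On Day 1, 7 of 144 pairs in 18 types were tested with 0 called by edgeR, 0 at an unadjusted p below 0.05 and a background of 1.05%. On Day 5, 16 of 88 pairs in 11 types were tested with 0 called, against 0.288% of all pairs, and 4 had an unadjusted p below 0.05, as 8.6% of all pairs did. Mfsd2a in astrocyte nuclei was at 47.7, 22.5 and 18.2 CPM with FGF1 and 105, 66.3 and 43.2 CPM with vehicle on Day 1, overlapping by 1 mouse, at a log2 fold change of −1.04 ± 0.52 (edgeR adjusted p = 0.602). On Day 5 it was at 27.1 and 30.7 against 45.8 and 27.7 CPM, at −0.58 ± 0.43 (edgeR adjusted p = 0.596). In OPC/COP nuclei Mfsd2a was at 9.88 and 18.1 CPM with FGF1 and 62.9 and 36.0 CPM with vehicle on Day 5, a log2 fold change of −1.83 ± 0.62 (unadjusted p = 0.00637, edgeR adjusted p = 0.199).

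Plvap counts in nuclei were spread over many types, with 613 UMIs in unmapped neurons (16.4 CPM) and 95 in astrocytes (19.1 CPM) against 5.0 CPM in endothelial nuclei. In whole cells too, Plvap UMIs were found in many types, and Gtpbp3 overlaps the gene on the other strand. In unmapped neurons on Day 5 Plvap was at 13.3 and 6.77 CPM with FGF1 and 29.4 and 25.4 CPM with vehicle (−1.44 ± 0.33, unadjusted p = 0.00121, edgeR adjusted p = 0.346). The difference of the FGF1 effect between Day 1 and Day 5 was tested for 18 pairs in nuclei and passed in 0 (edgeR interaction term, smallest adjusted p = 0.661, 1 with an unadjusted p below 0.05), against 0.00784% of all pairs.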

How the data were processed

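Hypothalamic nuclei of 10 mice and whole cells of 12 mice were measured by droplet sequencing. The authors aligned reads to GRCm38 (mm10) with Cell Ranger 1.2 and Seurat is also named in their processing notes, and they deposited raw UMI counts per gene and barcode for both datasets. The deposited metadata give the sample, batch and cluster or cell type of each barcode. Mitochondrial and ribosomal percent were computed by the authors for whole cells and from the counts for nuclei. Barcodes with either above the stated limit of 5 percent (903 nuclei) or 20 percent (4382 whole cells) were kept, and leaving them out was an alternative. Doublets were left as in the deposited tables. No sample column of another series was found (0).

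Libraries held 1967 to 7926 whole cells (2652897 to 11866269 UMIs) or 591 to 5768 nuclei (2721087 to 16345981 UMIs) per mouse. Annotated types were used for nuclei. Whole-cell clusters were named from marker lists, neurons were not analysed here as a whole-cell type, and 1 cluster of 108 cells with markers of OPC and oligodendrocytes stayed unnamed. Because names were rebuilt, they may differ from those of the study.

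Counts were summed per mouse and type (at least 10 cells per mouse, 2 mice per group), filtered with filterByExpr, scaled by TMM and tested with edgeR 4.0.16 in R 4.3.3 by a quasi-likelihood F test, with Benjamini-Hochberg adjustment over all genes tested in a type and a threshold of 0.05. DESeq2 1.42.0 was an alternative. CPM in the text are unscaled, so they can differ slightly from the fitted folds. Shares and within-mouse differences (log2 of CPM plus 1) were tested by exact two-sided permutation over mice in SciPy 1.17.1. Poisson and binomial intervals are at 95% and cover counting error only. The edgeR script was tested on simulated data. Named genes are the 8 genes in every type, any list gene called and the 2 of smallest p per list in endothelial cells, their paralogs or partner, and, of 3 genes per member ranked by likeness, the most alike. These genes and lists were chosen with earlier results of these data known. Protein sequences were not used here, and 1 named list gene is not reported here.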

Additional observations from a re-analysis of the deposited data

Results flagged for a closer look

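In 36 groups of mice examined, 9 held 1 mouse whose gap to the nearest of the others was large against the whole range of its group by Dixon's test. Chance flags about 1 in 20 groups. In endothelial cells Cldn5 was at 1845 CPM in FGF1 28, where the other 5 FGF1 mice were at 780 to 993 CPM. It was at 2741 CPM in vehicle 22, where the other 5 vehicle mice were at 792 to 1184 CPM. Ocln was low in vehicle 27, at 129 CPM against 161 to 176 CPM in the others. Slco1a4 was high in vehicle 29, at 1661 CPM against 1219.8 to 1348 CPM. Plvap was high in vehicle 35, at 69.7 CPM against 0 to 7.78 CPM, and the share of Plvap-positive endothelial cells was 6.59% in FGF1 7 against 0% to 2.31% in the other FGF1 mice.

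In glia, Mfsd2a in astrocytes was at 121 CPM in FGF1 7 against 41.7 to 67.1 CPM in the other FGF1 mice, and in COP it was at 293 CPM in vehicle 22 against 190 to 228 CPM in the other vehicle mice. Slc7a5 in oligodendrocytes was at 18.7 CPM in FGF1 6 against 1.93 to 8.03 CPM. Vehicle 22 stood out both in endothelial Cldn5 and in COP Mfsd2a, and its endothelial Mfsd2a, at 177 CPM, lay within the range of its group.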

How the results depend on the processing

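Of 394 values computed under other settings for 32 results, 341 stayed the same and 5 reversed. For a tested change, the same means an unchanged direction and side of the threshold. For a count of calls, it means equal to or close to the main count. None of the 8 genes was called in endothelial cells under any setting, with any mouse left out, or by DESeq2. The number of endothelial genes called, 60, was 136 without the low-count filter, 112 with the authors' batch as a block, 30 in cells with no pericyte-marker UMI, and 19 (without vehicle 25) to 143 (without vehicle 35) when 1 mouse was left out. Barrier list genes called, 0, were 1 by DESeq2 and in cells with no pericyte-marker UMI, 1 without the filter (Nkd1) and 0 to 2 with 1 mouse left out. The 4 calls in the other whole-cell types were 1 with each cluster on its own, a setting chosen after seeing the data, and 2 (without FGF1 10, vehicle 20 or vehicle 25) to 6 (without FGF1 28) with 1 mouse left out. Calls in Day 5 nuclei, 0, were 1 without the filter (Plvap in unmapped neurons, log2 −1.41) and 0 to 2 with 1 mouse left out. Cldn5 in endothelial cells reversed to 0.20 without vehicle 22 (range −0.46 to 0.20), and Abcb1a to −0.0097 without FGF1 21 (range −0.0097 to 0.17). The endothelial share in Day 1 nuclei, 0.036 percentage points higher with FGF1, ranged from −0.066 to 0.18 and reversed in 3 of 6 fits. The cause of these changes was not tested. Replicate numbers are shared by the Day 1 groups, but same-numbered mice deviated together only for number 3 (correlations −0.41 to 0.40, 3 of 9 above 0.1), so the numbers were not taken to pair them, and with the replicate number as a block 0 of the genes were called. Plvap-positive cells defined by at least 2 UMIs left no mouse with 10 such cells, so that setting could not be fitted. The number of endothelial nuclei (2 to 20 per mouse) and of Plvap UMIs (105 in endothelial cells) limits what can be read from both.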

Other observations

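After thinning to 800 UMIs, 6.65% of the 4032 endothelial cells held no UMI of any of the 8 genes, 19.4% held UMIs of 1 of them, 27.1% of 2, 25.6% of 3 and 15.3% of 4. The share of endothelial cells with a Cldn5 UMI at that depth was 45.7% to 70.0% over FGF1 mice and 40.5% to 83.1% over vehicle mice, and that with an Abcg2 UMI 28.1% to 40.1% and 24.3% to 32.8%.

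Between pairs of the genes, Pearson's r over the 13 whole-cell types of mean log2(CPM + 1) was 0.88 for Cldn5 with Slco1a4, 0.07 for Cldn5 with Mfsd2a and −0.33 for Ocln with Mfsd2a. These are descriptions over types that share libraries and any free RNA in them.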
